A study of Rattus norvegicus with 4 samples.

Results

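Receptor genes of nonpeptidergic and itch-sensing afferents (Mrgprd, Osmr, Il31ra, Lpar3, Plxnc1 and Htr1f) were followed in lumbar dorsal root ganglia (DRG) of rats given cisplatin in early life. They were taken by gene symbol from the protein-coding genes of the count table, giving 6 of 22293 genes. The rule used only symbol and biotype, but the genes were proposed with earlier results of these data known. The ganglia came from wild-type neonatal Wistar rats. Vehicle-treated rats received PBS, and cisplatin-treated rats received 0.3 mg/kg of cisplatin, a platinum-based chemotherapeutic, by intraperitoneal injection on P14 and P16. The study's methods place tissue collection at P23, whereas the labels give 16 days after treatment. Each group holds 2 libraries, called replicates 1 and 2, each from a different rat and made from 2 to 5 pooled ganglia. In whole ganglia, fewer cells of a type and less RNA per cell cannot be told apart.

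Nonpeptidergic afferents are unmyelinated C-fibres that largely lack substance P and end in the superficial skin. In single-cell surveys of mouse DRG, Mrgprd marks the class that senses mechanical and beta-alanine stimuli, whereas Osmr, Il31ra and Htr1f are found in the class that also makes somatostatin and natriuretic polypeptide B and signals itch. Lpar3 and Plxnc1 are used as markers within the nonpeptidergic branch. All 6 genes encode receptors of the cell membrane.

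Total counts per library ranged from 21384801 to 25618417. Neuronal transcripts marked the tissue as ganglion, with the neurofilament genes Nefl and Nefm, the highest of 16 pan-neuronal markers, at mean FPKM values of 2461 and 2243. The libraries were not alike in composition. All 16 pan-neuronal markers had a higher CPM (the count relative to the library's TMM-scaled total) in replicate 1 than in replicate 2 of both groups, and all 8 Schwann cell markers had the opposite order. Protein-coding genes of the mitochondrial genome took 1.46% and 2.52% of counts in the vehicle and 5.38% and 4.68% in the cisplatin libraries, so that this share separated the groups. These differences stand beside every value below, and their part in the results was not tested.

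Of the 6 genes, 5 passed the filter on low counts and entered edgeR's quasi-likelihood test over 14719 protein-coding genes. A gene was called when its adjusted p (Benjamini-Hochberg) was below 0.05 and the groups differed at least 1.5-fold, and none of the 5 was called in either direction. The test called 1 gene in all, which is 0.00679% of the genes tested, so that a count of 0 among 5 genes is close to the background. At an unadjusted p under 0.05 with the same fold, 8.12% of all genes (2.8% higher and 5.32% lower) and 0 of the 5 passed, and DESeq2 also called 0. For a single gene, the smallest p that 2 libraries against 2 allow in an exact permutation test (two-sided) is 0.333. The fold changes of 4 genes were above 0 (Mrgprd, Lpar3, Osmr and Plxnc1) and that of Il31ra was below 0, whereas 49.1% of all genes tested lay above 0.

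**Figure D1:**
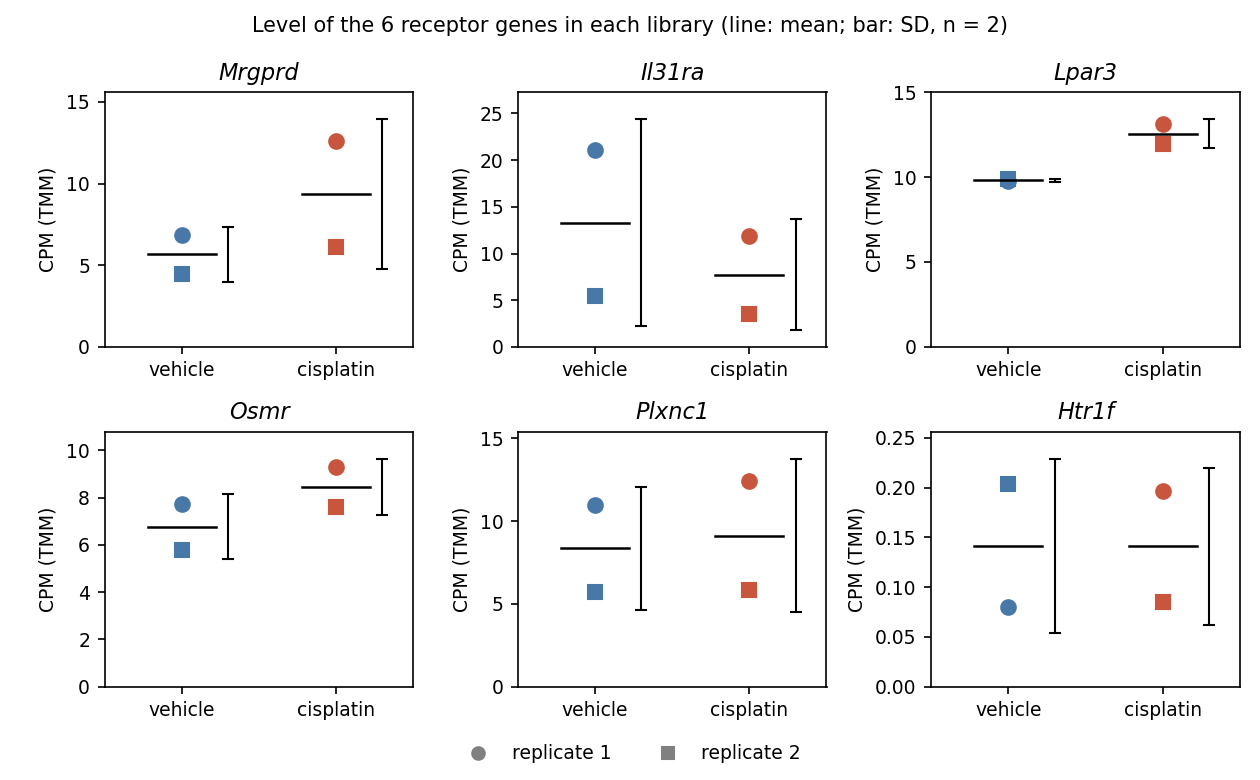
CPM (TMM-scaled, linear axis from 0) of each receptor gene in the vehicle (blue) and cisplatin (red) libraries, with circles for replicate 1 and squares for replicate 2; horizontal lines are group means and bars are SD (n = 2). Lpar3 is the gene whose groups do not overlap, and Il31ra spans from 3.53 to 21.1 CPM.

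Levels between genes were compared per length, as FPKM (fragments normalised to gene length and library total). Mrgprd had the highest mean over the 4 libraries, at 7.65 FPKM with a range of 4.51 to 12.8. Il31ra followed at 4.63 FPKM (1.56 to 9.32), then Lpar3 at 2.80 (2.45 to 3.30), Osmr at 2.57 (1.94 to 3.14) and Plxnc1 at 1.81 (1.18 to 2.57). The ranges of neighbours in this order overlapped, whereas every library of Mrgprd lay above every library of Lpar3, Osmr and Plxnc1. Within each library, however, Osmr lay above Plxnc1. The values were 2.62 against 2.28 and 1.94 against 1.18 FPKM in vehicle replicates 1 and 2. In cisplatin replicates 1 and 2 they were 3.14 against 2.57 and 2.58 against 1.22 FPKM. Htr1f stood apart at 0.0983 FPKM, with all 4 libraries below every library of the other genes. The deposited gene model of Mrgprd covers 960 bases without an intron, and that of Plxnc1 covers 4725 bases within a span of 150509. No other annotated gene of any biotype overlapped the 6 genes in the deposited coordinates.

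Mrgprd (ENSRNOG00000013448; chromosome 1, 218487824 to 218488783, plus strand, Rnor_6.0) encodes the Mas-related receptor that responds to beta-alanine. It had 172 and 88 counts in vehicle replicates 1 and 2, or 6.87 and 4.47 CPM, and 320 and 144 counts in cisplatin replicates 1 and 2, or 12.6 and 6.12 CPM. Cisplatin replicate 1 was the highest of the 4 libraries, but cisplatin replicate 2 lay below vehicle replicate 1, so that the groups overlapped. The group means were 5.67 ± 1.70 CPM after vehicle and 9.36 ± 4.58 CPM after cisplatin (SD, n = 2 per group), a 1.65-fold difference. The log2FC, the fitted log2 fold change of cisplatin against vehicle, was 0.72 (SE 0.44, 95% interval -0.37 to 1.81, edgeR adjusted p = 0.605). Without cisplatin replicate 1 it was 0.11, without vehicle replicate 2 it was 0.45, without vehicle replicate 1 it was 1.07, and without cisplatin replicate 2 it was 1.15. The summed counts of the 16 pan-neuronal markers served as another scale, in which the neurofilament genes Nefl and Nefm weigh most. They held 9321 and 7208 of 28140 CPM in vehicle replicate 1, and 10509 and 8668 of 37150 CPM in cisplatin replicate 1. Per 10000 pan-neuronal marker counts, Mrgprd had 2.44 and 2.03 in the vehicle and 3.39 and 2.34 in the cisplatin libraries, which overlapped only between cisplatin replicate 2 and vehicle replicate 1, and its log2FC on that scale was 0.36. Replicate 1 exceeded replicate 2 in each group, by 1.54-fold in vehicle-treated and 2.06-fold in cisplatin-treated rats.

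The Mas-related receptor genes are close relatives, so reads could be shared between them and single values are uncertain. Of the 21 symbols listed besides Mrgprd, 12 were in the table and 7 were tested. The test called 0, and 5 of the 7 had a fold change above 0, with a median log2FC of 0.18 against -0.01 over all genes tested. That median was 0.005 with a gene length correction and -0.14 when libraries were scaled to their pan-neuronal marker counts. It was -0.08 without cisplatin replicate 1 and 0.45 without cisplatin replicate 2. Mrgprb4, known in mouse from C-fibres that respond to stroking of hairy skin, had 677 and 339 counts in the vehicle and 1567 and 857 counts in the cisplatin libraries. Both cisplatin libraries of Mrgprb4 (61.7 and 36.4 CPM) lay above both vehicle libraries (27.0 and 17.2 CPM), with a log2FC of 1.15 (SE 0.35, edgeR adjusted p = 0.509). In this list and those below, up to 2 genes were named because their groups did not overlap, so that their separation is no result. Of all genes tested, 41.8% had such a separation. Mrgprx3, chosen after its values were seen, had 170 and 89 counts in the vehicle and 363 and 155 in the cisplatin libraries, and its groups overlapped as those of Mrgprd did. Mrgprf, the other gene of highest CPM in this list, had a log2FC of 0.18, and Mas1, a receptor for angiotensin 1-7, one of -0.54 on 12 to 22 counts per library. Mrgprb13, Mrgprx2l and Mrgprx1 had 0 counts in every library, which is below a floor of 3 counts, or 0.118 to 0.152 CPM.

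Osmr and Il31ra encode the chains that together form the receptor of interleukin-31, a T cell cytokine that evokes itch. Osmr also pairs with the product of Il6st, gp130, to form the receptor of oncostatin M, and these receptors signal through Jak kinases to Stat transcription factors. The RefSeq promoter windows of both genes, from 250 bases before to 50 bases after the annotated start (build GRCr8), are shown because the 2 chains of the receptor differed in how they varied over the libraries. Capitals mark matches to the motifs searched.
Il31ra promoter, chr2:45916960-45917259, minus strand: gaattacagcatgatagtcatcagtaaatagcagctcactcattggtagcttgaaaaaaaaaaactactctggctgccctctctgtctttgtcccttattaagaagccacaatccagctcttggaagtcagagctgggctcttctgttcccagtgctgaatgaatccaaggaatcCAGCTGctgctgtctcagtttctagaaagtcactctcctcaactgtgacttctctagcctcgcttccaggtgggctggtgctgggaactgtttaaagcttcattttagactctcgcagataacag
Osmr promoter, chr2:57688512-57688811, minus strand: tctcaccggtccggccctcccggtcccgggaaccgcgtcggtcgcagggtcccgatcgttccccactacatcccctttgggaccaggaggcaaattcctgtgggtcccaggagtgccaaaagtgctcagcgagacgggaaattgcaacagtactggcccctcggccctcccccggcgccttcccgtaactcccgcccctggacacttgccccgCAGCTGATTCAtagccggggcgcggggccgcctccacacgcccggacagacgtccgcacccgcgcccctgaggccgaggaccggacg
Of the 6 genes, 5 had a promoter entry, and Mrgprd was the one missing. The motifs were TGTGGT for RUNX factors, TTCNNNGAA for Stat factors, TGANTCA for AP-1 and CAGCTG as the only form of E-box searched, read on both strands. They occur in 17.3%, 8.87%, 7.33% and 15.1% of 33469 promoter windows of this length. The Il31ra window held an E-box at base 176. The Osmr window held an E-box at base 214 that overlaps an AP-1 match at base 218, counted from the 5′ end. The Htr1f window held a Stat match at bases 107 and 216, and the windows of Lpar3 and Plxnc1 held none of the motifs searched. Other E-box forms, such as the CACGTG in the Lpar3 window, were not searched. Base composition differed, with 69.3% G and C and 31 CpG dinucleotides in the Osmr window against 45.7% and 2 in that of Il31ra.

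Il31ra (ENSRNOG00000042080; chromosome 2, 44336006 to 44394709, minus strand) was the most variable of the 5 genes that passed the filter. It had 529 counts in vehicle replicate 1, 108 in vehicle replicate 2, 303 in cisplatin replicate 1 and 83 in cisplatin replicate 2. In CPM these were 21.1, 5.49, 11.9 and 3.53, so that replicate 1 exceeded replicate 2 by 3.85-fold in vehicle-treated and 3.38-fold in cisplatin-treated rats. A gap of at least 2-fold in this direction in both groups was found in 1.32% of all genes tested and in 1 of the 5. Mrgprd and Plxnc1 had such a gap in cisplatin-treated rats only (2.06-fold and 2.11-fold). The criterion follows the pattern of Il31ra itself, so the share describes Il31ra and is not a test. The group means were 13.3 ± 11.1 CPM and 7.73 ± 5.94 CPM (SD, n = 2 each), with a log2FC of -0.79 (SE 0.79, 95% interval -2.75 to 1.18, edgeR adjusted p = 0.752). Its sign rested on vehicle replicate 1: without that library the log2FC was 0.50, without vehicle replicate 2 it was -1.45, without cisplatin replicate 1 it was -1.92, and without cisplatin replicate 2 it was -0.16. Scaled to the pan-neuronal markers, Il31ra had 7.51 and 2.49 counts per 10000 marker counts in the vehicle and 3.21 and 1.35 in the cisplatin libraries, which still overlapped.

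Osmr (ENSRNOG00000033192; chromosome 2, 56110777 to 56151531, minus strand) varied much less. It had 194 and 114 counts in the vehicle and 236 and 179 counts in the cisplatin libraries, or 7.75, 5.79, 9.29 and 7.61 CPM. Cisplatin replicate 2 lay just below vehicle replicate 1, so that the groups overlapped by a narrow margin. Its log2FC was 0.32 (SE 0.29, 95% interval -0.40 to 1.03, edgeR adjusted p = 0.722). Without vehicle replicate 1 it was 0.55, without vehicle replicate 2 it was 0.13 and without cisplatin replicate 1 it was 0.17. Per 10000 pan-neuronal marker counts, Osmr ranged only from 2.50 to 2.91 over the 4 libraries, and its log2FC on that scale was 0.004. This scaling lowered the median log2FC of all genes tested to -0.32.

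Il31ra and Il6st lie 21061 bases apart on chromosome 2 on opposite strands, and Osmr and Lifr, the gene of the leukaemia inhibitory factor receptor, lie 274835 bases apart, also on opposite strands. Of 18 genes listed for the oncostatin M and interleukin-31 pathway, 15 were tested and 0 were called, with 11 of 15 log2FC values below 0 and a median of -0.35. This median was -0.16 with the gene length correction, and with 1 library removed it ran from -0.25 to -0.13, the latter when cisplatin replicate 2 was left out, and was -0.21 when either vehicle library was. Il6st had 1423 and 1258 counts in the vehicle and 783 and 842 counts in the cisplatin libraries. Both cisplatin libraries of Il6st lay below both vehicle libraries, with a log2FC of -0.86 (SE 0.19, edgeR adjusted p = 0.509). Lifr, whose product shares gp130 as its partner, had 77.3 and 42.2 CPM in the vehicle and 34.6 and 19.9 CPM in the cisplatin libraries, a log2FC of -1.13 (edgeR adjusted p = 0.509). Jak1 and Stat3, the genes of highest CPM in the list, had log2FC values of -0.03 and 0.04. Of the ligands, Osm had 6 to 21 counts per library, and Il31 had 0 counts in every library.

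Lpar3 (ENSRNOG00000015260; chromosome 2, 252090669 to 252159903, plus strand) encodes a receptor of lysophosphatidic acid, a lipid mediator linked to neuropathic pain and itch. Its libraries were the most even, with 244 and 194 counts in the vehicle and 334 and 281 counts in the cisplatin libraries. In CPM these were 9.75 and 9.86 against 13.1 and 11.9, and Lpar3 was the only gene of the 5 whose groups did not overlap, a separation that 41.8% of all genes tested also had. The means of 9.80 ± 0.0766 CPM and 12.5 ± 0.851 CPM (SD, n = 2 each) differed 1.28-fold, a log2FC of 0.36 (SE 0.23, 95% interval -0.21 to 0.92, edgeR adjusted p = 0.619). Leaving out any of the 4 libraries gave values from 0.30 to 0.42. Per 10000 pan-neuronal marker counts, however, Lpar3 had 3.46 and 4.47 in the vehicle and 3.54 and 4.56 in the cisplatin libraries, and the groups overlapped.

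In the lysophosphatidic acid list, 8 of 12 symbols matched a protein-coding gene, 7 were tested and 0 were called. The median log2FC of 0.07 was -0.001 with library size alone, -0.02 with the length correction, -0.24 with pan-neuronal scaling and -0.19 without cisplatin replicate 2. Lpar1, the receptor of highest level and one expressed by Schwann cells, had 98.8 and 100.1 CPM in the vehicle and 104.1 and 105.3 CPM in the cisplatin libraries. The groups did not overlap, but the log2FC was only 0.07 (SE 0.17, edgeR adjusted p = 0.901). Enpp2, which encodes autotaxin, the enzyme that makes lysophosphatidic acid, had a log2FC of -0.24 (edgeR adjusted p = 0.746) and overlapping groups.

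Plxnc1 (ENSRNOG00000007970; chromosome 7, 35850398 to 36000906, minus strand) encodes plexin C1, the receptor of semaphorin 7A. It had 275 and 113 counts in the vehicle and 315 and 138 counts in the cisplatin libraries, or 10.99, 5.74, 12.4 and 5.87 CPM. Both replicate 1 libraries were about equally high and both replicate 2 libraries about equally low, with gaps of 1.91-fold in vehicle-treated and 2.11-fold in cisplatin-treated rats. The log2FC was 0.12 (SE 0.48, 95% interval -1.08 to 1.33, edgeR adjusted p = 0.942). It was -0.26 without vehicle replicate 2, -0.51 without cisplatin replicate 1, 0.67 without vehicle replicate 1 and 0.56 without cisplatin replicate 2, and -0.22 when scaled to pan-neuronal counts, so its direction was not fixed by these data.

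Of 14 plexin and semaphorin symbols listed, 13 matched a protein-coding gene, 12 were tested and 0 called. The median log2FC of -0.10 was 0.08 with the length correction and -0.29 without vehicle replicate 2. Sema7a, the ligand of plexin C1, had 146.5 and 139.1 CPM in the vehicle and 154.2 and 137.9 CPM in the cisplatin libraries, a log2FC of 0.03. Itgb1, an integrin chain through which semaphorin 7A can also act, had a log2FC of -0.11. Plxnb1 and Plxna1, receptors of other semaphorins, had lower CPM in both cisplatin than in both vehicle libraries, with log2FC values of -1.35 and -0.53 (edgeR adjusted p = 0.509 for each).

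Htr1f (ENSRNOG00000000716; chromosome 11, 1982113 to 1983513, minus strand) encodes an inhibitory serotonin receptor. It had 2 and 4 counts in the vehicle and 5 and 2 counts in the cisplatin libraries. Vehicle replicate 1 and cisplatin replicate 2 thus lay below the floor of 3 counts, and the others just above it. It did not pass the filter, and a difference was not detectable at this depth. Of 17 genes listed for serotonin receptors and serotonin handling, 13 were tested and 0 called, and 9 of the 13 had a log2FC above 0, with a median of 0.34. The median was 0.05 when scaled to pan-neuronal counts, and it ran from -0.20 without cisplatin replicate 1 to 0.89 without vehicle replicate 1. Htr3a, the subunit of the serotonin-gated channel and the gene of highest CPM here, had 103.0 and 63.3 CPM in the vehicle and 166.7 and 94.1 CPM in the cisplatin libraries, which overlapped. Maoa, whose enzyme breaks down serotonin, had a log2FC of -0.49. Htr1b, a close relative of Htr1f, had 8.23 and 9.04 CPM in the vehicle and 4.05 and 5.95 CPM in the cisplatin libraries, a log2FC of -0.79 (edgeR adjusted p = 0.516). Tph1, which makes serotonin, had 3.12 and 2.39 against 6.38 and 3.32 CPM.

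**Figure D2:**
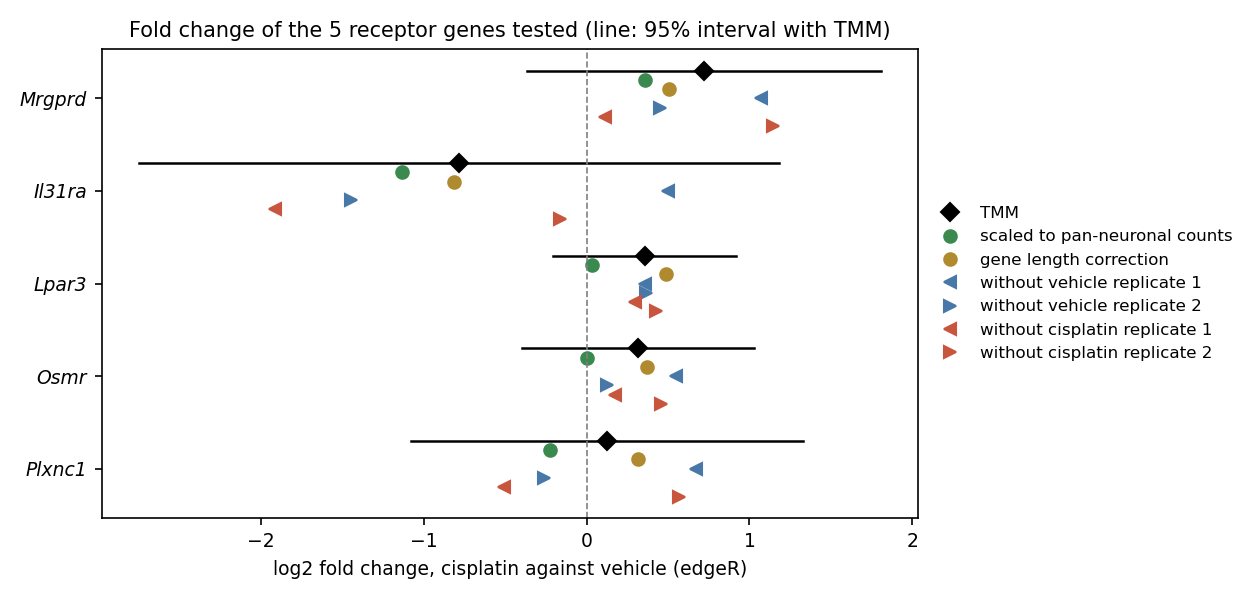
Log2 fold change (cisplatin against vehicle, edgeR) of the 5 receptor genes tested. Black diamonds and lines are the TMM fit and its 95% interval; green circles are scaled to pan-neuronal counts, brown circles have the gene length correction, and triangles leave out 1 library. Every interval includes 0, the sign of Il31ra turns without vehicle replicate 1 (0.50), and Plxnc1 lies on either side of 0.

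**Figure D3:**
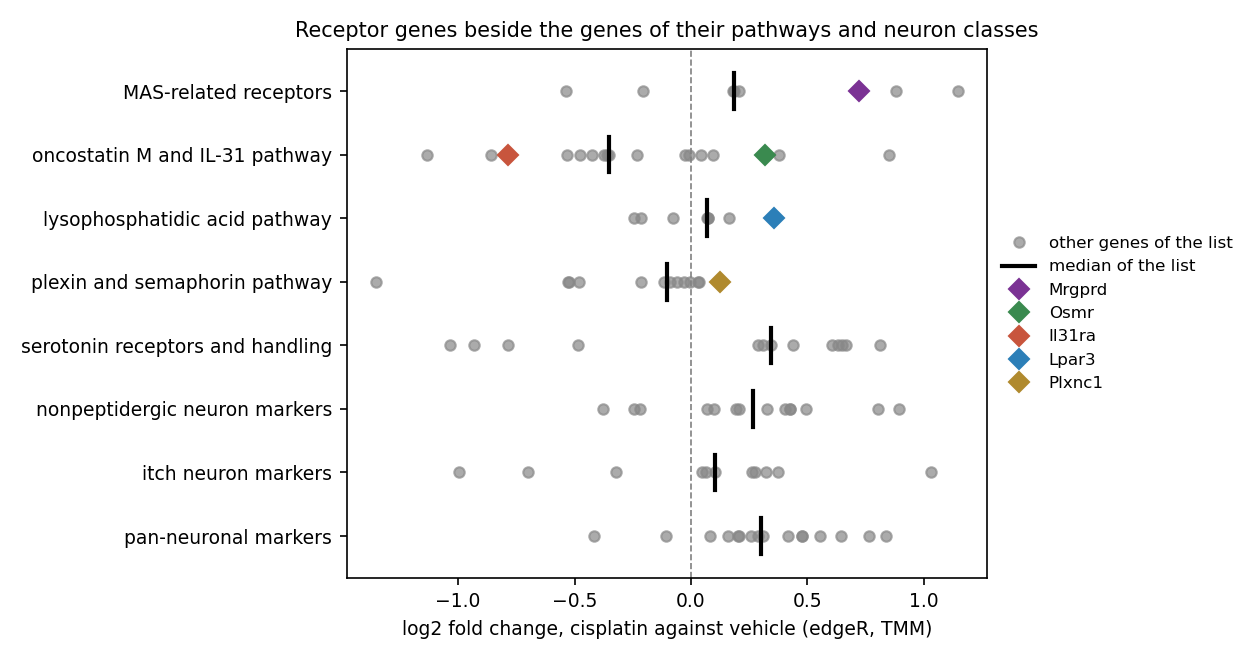
Log2 fold change (edgeR, TMM) of the tested genes of 8 lists in grey, with the list median as a black bar and the receptor genes as coloured diamonds. Mrgprd (0.72) lies above its list median of 0.18, and Il31ra (-0.79) and Osmr (0.32) lie on either side of theirs (-0.35).

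Markers of the same afferents were described in the same way. All 14 nonpeptidergic markers were tested and 0 were called, with 11 above 0 and a median log2FC of 0.27, against 0.30 for the 16 pan-neuronal markers. Scaled to pan-neuronal counts, the medians were -0.08 and -0.02, and without cisplatin replicate 1 they were 0.02 and 0.09, against 0.53 and 0.57 without vehicle replicate 1. Ret, the receptor tyrosine kinase of these neurons and the gene of highest CPM in the list, had a log2FC of 0.20 and overlapping groups. P2rx3, the ATP-gated channel subunit of nonpeptidergic nociceptors, had 201.7 and 168.6 CPM in the vehicle and 415.4 and 230.7 CPM in the cisplatin libraries, a log2FC of 0.80 (SE 0.33, edgeR adjusted p = 0.519). Tmem45b had 16.5 and 14.2 against 34.9 and 22.2 CPM, a log2FC of 0.90 (edgeR adjusted p = 0.509). P2rx3 and Tmem45b were named because their groups did not overlap, which held for 4 of the 14 markers and 41.8% of all genes tested. The 3 markers below 0 were Prkcq, Trpa1 and Agtr1a, at -0.38, -0.24 and -0.22 with overlapping groups. In the itch neuron list 11 of 11 genes were tested, 0 were called and 8 were above 0, with a median of 0.10 that was -0.23 with pan-neuronal scaling, -0.12 without vehicle replicate 2, -0.21 without cisplatin replicate 1 and 0.34 without vehicle replicate 1. Sst, the somatostatin gene, was abundant at a mean of 156.9 FPKM, with 129.6 and 48.3 CPM in the vehicle and 129.1 and 86.4 CPM in the cisplatin libraries. Plcb3, a phospholipase of itch signalling, had a log2FC of 0.07. Nppb, which encodes the itch transmitter natriuretic polypeptide B, had 2.44 and 1.52 CPM against 5.47 and 2.68 CPM (log2FC 1.03, edgeR adjusted p = 0.539). It was named because its groups did not overlap, which held for 1 of the 11 itch markers and 41.8% of all genes tested.

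**Figure D4:**
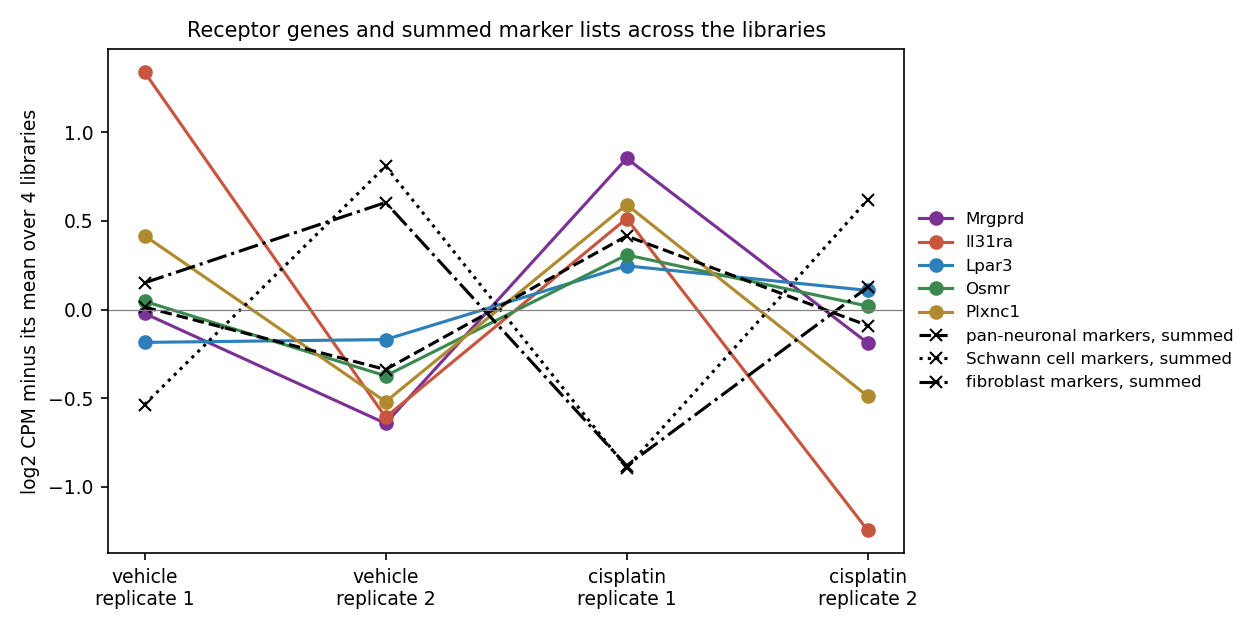
Log2 CPM of the 5 receptor genes tested and of 3 summed marker lists (pan-neuronal, Schwann cell and fibroblast), as the difference from the mean over the 4 libraries. Il31ra, Mrgprd, Plxnc1 and Osmr are higher in replicate 1 than in replicate 2 of each group, as is the pan-neuronal sum, whereas the Schwann cell sum runs the other way.

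Replicate 1 exceeded replicate 2 in both groups for 4 of the 5 genes (Mrgprd, Osmr, Il31ra and Plxnc1), an order found in 34.2% of all genes tested. The summed pan-neuronal level was 28140 and 22050 CPM in the vehicle and 37150 and 26190 CPM in the cisplatin libraries. The summed Schwann cell level was 61780 and 156800 CPM against 48260 and 137500 CPM. All 8 Schwann cell markers had a log2FC below 0, with a median of -0.32 and 0 of them called, and Pmp22, a peripheral myelin gene, had a log2FC of -0.20 with overlapping groups. The direction of this list rested on single libraries, since its median was 0.25 without vehicle replicate 2, 0.14 without cisplatin replicate 1 and -1.12 without cisplatin replicate 2. Fibroblast markers summed to 8987 and 12300 CPM in the vehicle and 4398 and 8834 CPM in the cisplatin libraries, with 0 of 8 called, 5 below and 3 above 0, and a median of -0.43, which was -0.16 without cisplatin replicate 1 and -0.85 without cisplatin replicate 2. Osmr is also expressed by fibroblasts and endothelial cells, and Plxnc1 by leukocytes. The 13 macrophage markers summed to between 77.5 and 91.5 CPM in the vehicle and between 87.5 and 96.9 CPM in the cisplatin libraries, with 0 called and a median of 0.10, or -0.22 with pan-neuronal scaling and -0.11 without vehicle replicate 1. The part of these cells in the values of the receptor genes was not tested.

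Over the 4 libraries, the profiles most alike among the 5 genes were those of Osmr and Lpar3, which differed by 0.16 (root mean square of mean-centred log2 CPM), followed by Mrgprd and Plxnc1 at 0.30. The least alike were Il31ra and Lpar3, at 1.04. Among 11779 other genes with at least 50 counts in every library, 4 lay within 0.25 of Il31ra, the nearest being Gfod1 (0.15) and Napb (0.19). By contrast, 480 genes lay within that distance of Mrgprd (nearest 1500009L16Rik and Serp2), 642 of Plxnc1 (Itgb6 and Prmt8), 3897 of Osmr (Agpat4 and Slc25a4) and 4990 of Lpar3 (Thyn1 and Ctsz). Only 4 values define each profile, so many genes resemble an even profile such as that of Lpar3.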

How the data were processed

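RNA from lumbar DRGs was sequenced in 2 vehicle and 2 cisplatin libraries. Per the labels and the study's methods, the authors mapped reads to Ensembl Rnor_6.0 with HISAT2 2.0.5 and assembled transcripts with StringTie 1.3.3b; the processing notes also name featureCounts 1.5.0-p3, without a role, and the strand setting is not given in the sources used here. The deposited counts per gene are whole numbers without normalisation. The deposited FPKM values equal, within each library, the count over gene length times a constant. Samples were grouped by their titles.

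Protein-coding genes kept by filterByExpr (14719 of 22293) were normalised with TMM and tested with edgeR 4.0.16 (glmQLFit, glmQLFTest; R 4.3.3) with treatment as the only term. Calls required an adjusted p below 0.05 and at least a 1.5-fold difference. Standard errors came from the log2 fold change and F, and 95% intervals from these and the test's total degrees of freedom. CPM values used TMM. Alternatives were other scalings, including one to the summed counts of 16 pan-neuronal markers, other filters, all biotypes, an earlier form of the fit, DESeq2 1.42.0, a gene length correction (lowess, span 0.3), the replicate block, limma 3.58.1 on log2(FPKM + 1) and log2(FPKM + 0.1), where changes of low genes are understated, and leaving out each library. The tests were also run on simulated data that held no difference between replicates. The spread between libraries (common dispersion) was set as in the block fit, 0.0209, against 0.0711 without the block. That setting differs from these data, so the simulation is no check on the calls made here.

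The 6 genes and 16 lists were chosen with earlier results of these data known. Named list genes were the direct partners of the receptors, the 2 of highest CPM and up to 2 with the smallest p among those whose groups did not overlap. Some genes that this rule names are not reported here. For each receptor gene tested, the 2 genes of nearest profile were named (log2 CPM, prior count 2). Floors of 3 counts reflect counting error alone, since reads were not tied to molecules by identifiers. In the main test, p-values set the difference between the groups against the spread between libraries of the same group. That spread was estimated in part from all genes tested, and it rests on these 4 libraries alone. The promoter motifs were chosen after the sequences were seen.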

Additional observations from a re-analysis of the deposited data

How the results depend on the processing

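The 2 libraries per group and their unequal content of neuronal and Schwann cell transcripts limit every comparison here. The direction of Mrgprd, Lpar3 and Osmr was the same under all 17 alternatives, that of Il31ra under 16 and that of Plxnc1 under 14. Leaving out each library in turn gave a log2FC (log2 fold change) ranging from 0.11 to 1.15 for Mrgprd, 0.30 to 0.42 for Lpar3, 0.13 to 0.55 for Osmr, -1.92 to 0.50 for Il31ra and -0.51 to 0.67 for Plxnc1. All alternatives reuse the same 4 libraries, and the count of directions takes no account of size. Scaled to pan-neuronal markers, Osmr was 0.004, Lpar3 0.03, Mrgprd 0.36, Plxnc1 -0.22 and Il31ra -1.13. The cause was not tested.

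The labels share replicate numbers 1 and 2 between the groups, but nothing ties same-numbered rats together, and the deposited tables number the cisplatin libraries 4 and 6. Across genes, which are not independent replicates, the gap between the vehicle libraries and the gap between the cisplatin libraries had a Pearson's r of 0.444 and a Spearman's rho of 0.567. With the replicate block, the log2FC of Il31ra was -0.75 (edgeR adjusted p = 0.0274), or -0.77 when the length correction was added to the block (edgeR adjusted p = 0.0364). It was then the 1 of the 5 receptor genes tested that was called lower, with 0 called higher under either fit. The adjusted p of Il31ra over its alternatives ran from 0.0274 to 0.995, and that of Mrgprd was 0.0602 with the block. Calls were common with the block, so that a single call among the receptor genes says little. Of 14719 genes tested, it called 529 higher and 1136 lower, among them 12 and 13 of the 161 listed genes tested. With the length correction added it called 277 and 805, among them 7 and 9 listed genes.

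Without a block, DESeq2 called 36 genes higher and 63 lower (1 listed gene lower), limma on log2(FPKM + 1) 2 and 2, and on log2(FPKM + 0.1) 0 lower. Either without a filter or with a minimum of 10 counts per library, 1 was called higher, and with pan-neuronal scaling 0 lower. At an unadjusted p under 0.05, 412 and 783 passed. Leaving out 1 library gave 0 to 4 genes higher and 0 to 4 lower: 3 and 2 without vehicle replicate 1, 0 and 4 without vehicle replicate 2, 0 and 0 without cisplatin replicate 1, and 4 and 3 without cisplatin replicate 2. Htr1f was the 1 gene of the 6 below the filter on low counts.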

Other observations

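The other neuron and cell type lists gave these values, with 0 genes called in each by edgeR. Of 8 peptidergic markers, 5 had a log2 fold change above 0, with a median of 0.26, against -0.07 with pan-neuronal scaling or without cisplatin replicate 1. Calca, the gene of calcitonin gene-related peptide, had 0.38 and separated groups, and Gal, the gene of galanin, had 0.55 and separated groups. Tac1, the substance P precursor gene, had 0.43 with overlapping groups. Adra2a, Kit and Adcyap1, chosen after their values were seen, had -0.29, -0.28 and -0.08, with Adra2a separated below. Groups were separated above for 2 of the 8 markers and below for 1, and 41.8% of all genes tested were separated. Of 7 tested markers of myelinated afferents, 6 were above 0, with a median of 0.12, or -0.21 with pan-neuronal scaling, -0.03 without vehicle replicate 2 and -0.10 without cisplatin replicate 1, with Nefh at 0.07, Ldhb at 0.17 and Spp1 at 0.38. The satellite glial list had a median of 0.05, which was -0.002 with library size alone, and Kcnj10, a potassium channel gene of these cells, had 492 and 247 counts in the vehicle and 201 and 165 counts in the cisplatin libraries (log2 fold change -1.11, edgeR adjusted p = 0.509). Apoe and Glul, the genes of highest CPM in that list, had 0.19 and -0.17.

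Of 8 tested granulocyte and lymphocyte markers, 7 were above 0, with a median of 0.72 that was 0.27 without cisplatin replicate 2 and 0.23 with limma on log2(FPKM + 1). S100a9 and S100a8, abundant in neutrophils, had 0.70 and 0.74, with groups separated by a thin margin (14.9 against 15.7 CPM for S100a9 and 10.1 against 10.7 CPM for S100a8 between the nearest libraries), and Csf3r had 0.90. In the macrophage list, 4 markers were separated above and 4 below: C1qc and Cd68 had 0.71 and 0.86, whereas Adgre1, Aif1, Cd163 and Ptprc, chosen after their values were seen, had -0.56, -0.32, -0.70 and -0.20. Csf1r had -0.05 and overlapping groups. In the fibroblast list Col1a2 had -1.59, Pdgfra -0.71 and Col1a1 -0.74, all with separated groups, Col3a1 had -0.68 with overlapping groups, and Fbln1, chosen after its values were seen, had 0.27 and was separated above. Of 7 tested endothelial and mural markers 2 were above and 5 below 0, with a median of -0.23 that was 0.04 without cisplatin replicate 1. Rgs5 had -0.74, Kdr -0.51, Pdgfrb -0.34 and Cdh5 0.13. In this list 1 marker was separated above and 2 below, and the highest log2 fold change was 0.43. Thy1 and Snap25, in the pan-neuronal list, had 0.84 and 0.65 with separated groups, and Nefl and Nefm had 0.16 and 0.21. Fcer1a, of mast cells, and Cldn5, of endothelial cells, had 0 counts in every library. Over the 16 lists, 161 genes were tested, of which 7.45% passed an unadjusted p under 0.05 with a fold change of at least 1.5, against 8.12% of all genes, and 32.9% had separated groups, against 41.8%.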
